A study of Homo sapiens with 10 samples.

Results

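The small proline-rich genes of chromosome 1, *SPRR1A*, *SPRR1B*, *SPRR2A*, *SPRR2B*, *SPRR2D*, *SPRR2E*, *SPRR2F* and *SPRR3*, were followed across 10 RNA-Seq libraries of deletion clones and their controls. They are 8 of the 27946 gene symbols in the deposited table and were taken by symbol, with the transcript of the highest mean FPKM (reads scaled to transcript length and library size) for each. The family was chosen by what *SPRR2A* and *SPRR2B* did in the *VEGFC-LNC* deletion clones, where their loss was already known. For this reason the values of that comparison are given as a description with no test.

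The cells were EA.hy926, an established endothelial line made by fusing human umbilical vein endothelial cells with the lung carcinoma line A549. The promoters of long noncoding RNAs named *VEGFA-LNC* and *VEGFC-LNC* had been deleted with Cas9 and flanking guide RNAs (gRNAs). *VEGFA-LNC* starts within an intron of *VEGFA*, and *VEGFC-LNC* lies upstream of *VEGFC*. A deletion named after either RNA is that of its promoter. The 4 groups were 3 clones with the *VEGFA-LNC* deletion, 2 controls of that deletion, 3 clones with the *VEGFC-LNC* deletion and 2 controls of that one. All cells, controls included, went through clonal selection in the same serum-containing medium, and the controls received gRNAs but no Cas9. Each deletion library is a different clone, so that a clone's own history and the deletion are sampled together. *VEGFA-LNC* and *VEGFC-LNC* themselves were not analysed here, and group membership rests on the labels.

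SPRR proteins are short, proline-rich precursors of the cornified envelope, the cross-linked protein layer under the membrane of squamous epithelial cells. Transglutaminases join them to loricrin, involucrin and other partners. Their genes stand together in the epidermal differentiation complex, which also holds the late cornified envelope (LCE) genes, filaggrin and many S100 genes. SPRR genes are known for induction in differentiating keratinocytes and in stressed, wounded or inflamed epithelia. They are not classical endothelial genes.

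The table placed the members over 129.4 kb of chromosome 1 (hg19), in the order *SPRR1A*, *SPRR3*, *SPRR1B*, *SPRR2D*, *SPRR2A*, *SPRR2B*, *SPRR2E* and *SPRR2F*. The first 3 lie on the plus strand and the 5 *SPRR2* genes on the minus strand. Each has 2 exons in the GENCODE annotation of GRCh37, with the coding part in the second. The 5 *SPRR2* genes have coding sequences of 219 bases, of which 26 to 28 of 72 codons encode proline (36.1% to 38.9%). The share was 30.3% for *SPRR1A*, 29.2% for *SPRR1B* and 22.5% for *SPRR3*. The coding sequences of *SPRR2A* and *SPRR2B*, which held most reads of the family, and of *SPRR2F*, which was close to silent, are shown to make plain how alike the genes are. They were read from GRCh37, and capitals mark bases that differ from *SPRR2A*.
SPRR2A: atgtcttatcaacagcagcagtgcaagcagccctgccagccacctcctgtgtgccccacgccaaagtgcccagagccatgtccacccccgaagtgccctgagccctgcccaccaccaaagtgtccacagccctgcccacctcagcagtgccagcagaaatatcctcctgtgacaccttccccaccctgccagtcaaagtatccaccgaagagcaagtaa
SPRR2B: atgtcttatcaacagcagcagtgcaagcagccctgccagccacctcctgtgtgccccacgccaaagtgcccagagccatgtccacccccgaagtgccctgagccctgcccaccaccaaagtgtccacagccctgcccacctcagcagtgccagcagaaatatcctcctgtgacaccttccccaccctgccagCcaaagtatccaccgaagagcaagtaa
SPRR2F: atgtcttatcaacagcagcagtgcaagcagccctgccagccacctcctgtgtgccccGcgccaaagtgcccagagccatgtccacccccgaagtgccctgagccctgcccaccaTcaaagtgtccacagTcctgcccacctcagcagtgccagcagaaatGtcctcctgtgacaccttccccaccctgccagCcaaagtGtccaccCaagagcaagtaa
*SPRR2B* differed from *SPRR2A* at 1 of 219 coding bases, *SPRR2D* at 4, *SPRR2E* at 5 and *SPRR2F* at 7. Whole transcripts of the members, *SPRR2G*, *SPRR4* and *SPRR5* were compared, without the noncoding copy *SPRR2C*, so that sharing may be understated. Of the 75-base windows of *SPRR2A*, 25.2% occurred unchanged in another of these transcripts, and 61.4% did with up to 3 mismatches. Exact sharing was 25.4% for *SPRR2B*, 18.4% for *SPRR2E*, 16.3% for *SPRR2D*, 4.66% for *SPRR2F* and 0% for *SPRR1A*, *SPRR1B* and *SPRR3*. Reads were 75 bases long, so that the split of reads among the *SPRR2* genes is uncertain, while the sum over the family depends less on it.

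The 250 bases before the annotated starts of the same 3 genes are shown because *SPRR2A* and *SPRR2B* moved together and *SPRR2F* hardly had reads (RefSeq, GRCh38.p14, minus strand). Capitals mark letters of the AP-1 motif (TGANTCA), the octamer (ATTTGCAT) and the TATA box (TATAAA), searched on both strands, with none of them overlapping.
SPRR2A, chr1:153057513-153057762: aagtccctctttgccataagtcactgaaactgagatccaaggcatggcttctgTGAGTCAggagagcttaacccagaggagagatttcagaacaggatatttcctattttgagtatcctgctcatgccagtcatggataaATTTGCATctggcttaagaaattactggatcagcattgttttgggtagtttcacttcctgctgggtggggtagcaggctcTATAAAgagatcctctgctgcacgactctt
SPRR2B, chr1:153071612-153071861: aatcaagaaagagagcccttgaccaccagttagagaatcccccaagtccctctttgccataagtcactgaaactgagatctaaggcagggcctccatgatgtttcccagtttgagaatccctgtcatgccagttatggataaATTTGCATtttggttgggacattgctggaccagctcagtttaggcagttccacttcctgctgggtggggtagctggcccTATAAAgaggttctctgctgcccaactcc
SPRR2F, chr1:153113517-153113766: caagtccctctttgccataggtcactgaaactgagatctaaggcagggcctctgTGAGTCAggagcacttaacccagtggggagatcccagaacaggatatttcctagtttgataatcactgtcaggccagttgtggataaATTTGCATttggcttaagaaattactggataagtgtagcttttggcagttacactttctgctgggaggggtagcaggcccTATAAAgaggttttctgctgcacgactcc
Windows of 300 bases, reaching 50 bases past the start, were at hand for 6 members, all but *SPRR2D* and *SPRR2E*. The octamer was found in 3 of the 6, *SPRR2A*, *SPRR2B* and *SPRR2F*, and in 1.77% of all 35116 promoters. The AP-1 letters were found in 5 of the 6, with *SPRR2B* the exception, and in 7.71% of all promoters. TATAAA was found in all but *SPRR1B*, against 11.5% of promoters. The ETS letters (CNGGAAG) were in *SPRR1B*, *SPRR2A* and *SPRR2B* (33.6% of promoters), CACCC of the KLF factors in all but *SPRR2F* (59.9%) and the grainyhead letters (AACNNGTT) in *SPRR2B* (3.52%). The interferon element (GAAA repeated after 2 free bases, 3.57%) and the STAT letters (TTC and GAA with 3 or 4 free bases between, 13.5%) were in none of the 6. Aligned end to end, the *SPRR2A* window was identical to that of *SPRR2F* at 88.3% of aligned bases and to that of *SPRR2B* at 84.4%.

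The libraries held between 6743976 and 24197597 reads, as recovered from the FPKM values, and every gene count below is small beside them. Of the 8 members, 5 had at least 1 read in some library and 3 had none in any. *SPRR2A* and *SPRR2B* passed the filter of at least 1 cpm (reads scaled to library size alone) in 2 libraries and entered the test with 13334 genes in all. Both reached 1 cpm only in the 4 controls, so that they entered through the groups where they are high. Endothelial markers were present, with 11 of 13 at a mean of at least 1 FPKM and *CLDN5* at 0 in all libraries, and their summed level ranged from 700.9 to 713.8 FPKM in the *VEGFA-LNC* controls, 509.9 to 1299 in their clones, 796.0 to 813.9 in the *VEGFC-LNC* controls and 760.4 to 1419 in their clones. Of 13 simple epithelial markers only *KRT7*, *KRT8*, *KRT18* and *MUC1* reached 1 FPKM, with sums of 1080 to 1090, 490.8 to 1314, 900.9 to 913.3 and 440.4 to 868.3 FPKM in the same order. Of 13 squamous or keratinocyte markers, *KRT10* and *PERP* reached 1 FPKM, while *DSC3*, *LGALS7* and *LOR* were at 0 throughout. Their sums were 12.9 to 13.1, 8.21 to 12.3, 6.79 to 7.60 and 6.59 to 12.6 FPKM. Of the tested markers, *EMCN* fell in the *VEGFC-LNC* clones (FDR 0.0467 by limma), EGFL7 was higher and *TP63* lower in the *VEGFC-LNC* controls than in the *VEGFA-LNC* controls (FDR 0.0234 and 0.0264 by limma), and no other passed. The shares of all tested genes that passed were 2.75% in the *VEGFA-LNC* clones, 0.472% in the *VEGFC-LNC* clones and 12.7% between the control sets. The part of these markers in the SPRR values was not tested. In bulk RNA, fewer cells carrying a transcript and less transcript per cell cannot be told apart.

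*SPRR2B* had the highest mean level of the family (NM_001017418, chr1:153042704-153044084, minus strand). It stood at 3.26 and 2.51 FPKM in the *VEGFA-LNC* controls and at 0.401, 0.323 and 0.343 FPKM in the *VEGFA-LNC* deletion clones. It stood at 3.61 and 4.37 FPKM in the *VEGFC-LNC* controls and at 0 in all 3 *VEGFC-LNC* deletion clones. These values came from 38 and 38 reads, 4 reads in each *VEGFA-LNC* clone, and 23 and 71 reads. All 4 controls lay above all 6 clones, as they did for 2.01% of tested genes. Part of this order was fixed by the choice of the family on the *VEGFC-LNC* set.

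*SPRR2A* (NM_005988, chr1:153028596-153029988, minus strand), the neighbouring gene, followed the same order. Its FPKM was 2.05 and 1.58 in the *VEGFA-LNC* controls and 0.4, 0.161 and 0.427 in their clones, from 24 and 24 and from 4, 2 and 5 reads. It was 3.76 and 3.68 FPKM in the *VEGFC-LNC* controls, from 24 and 60 reads, and 0 in their 3 clones. Here the *VEGFC-LNC* controls were above the *VEGFA-LNC* controls without overlap, as they were for *SPRR2B* and for 33.7% of all tested genes. *SPRR2B* took 61.3% of the reads of the pair in each *VEGFA-LNC* control (95% exact binomial interval 48.1% to 73.4%), 48.9% (34.1% to 63.9%) and 54.2% (45.3% to 62.9%) in the *VEGFC-LNC* controls. The 4 intervals overlap, and whether the balance of the pair differed between the control sets was not tested.

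*SPRR2E* (NM_001024209, chr1:153065611-153067004, minus strand) also had reads in every control. It had 0.849 and 0.327 FPKM in the *VEGFA-LNC* controls, 0, 0.080 and 0.085 in their clones, 0.467 and 1.22 in the *VEGFC-LNC* controls and 0 in their clones. *SPRR2D* (NM_006945, chr1:153012201-153013594, minus strand) had 0.424 and 0.131, then 0.099, 0 and 0, then 0.155 and 0.183 FPKM, and 0 in the *VEGFC-LNC* clones. The values of *SPRR2D* rest on 12 reads and those of *SPRR2E* on 40 reads over all libraries. For these 2 genes too the lowest control was above the highest clone, as it was for 1.47% of the 22841 symbols with a read.

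*SPRR2F* (NM_001014450, chr1:153084600-153085991, minus strand) departed from this pattern. It had single reads in the second *VEGFA-LNC* control and in the clones 2 and 3 of *VEGFA-LNC*, 3 reads in all, and no read in the *VEGFC-LNC* set. *SPRR1A*, *SPRR1B* and *SPRR3*, the members on the plus strand, were at 0 in all 10 libraries. In the *VEGFA-LNC* controls, 3 reads over the group would be 0.115 FPKM for *SPRR1A*, 0.122 for *SPRR1B* and 0.077 for *SPRR3*, which limits what could have been seen. Reads of the family therefore came from the unbroken run of minus-strand *SPRR2* genes.

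**Figure D1:**
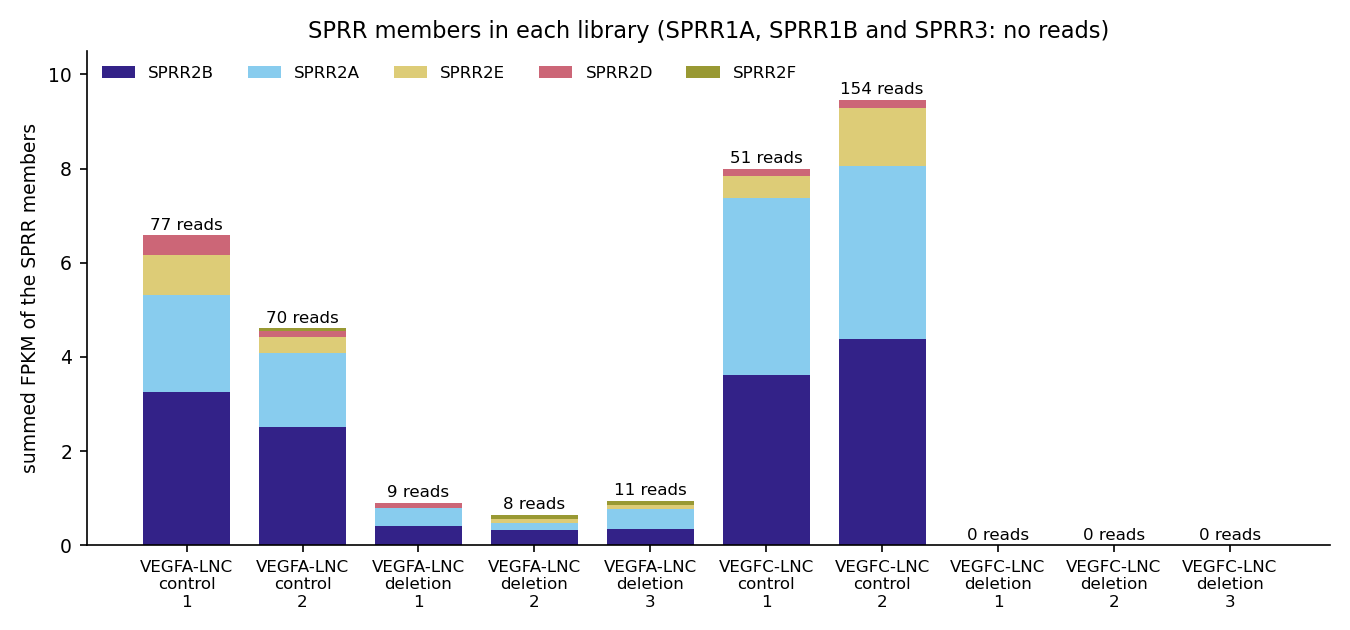
Summed FPKM of the SPRR members in each of the 10 libraries, with a colour for each gene and the number of reads of the family above each bar. The 4 control libraries hold 51 to 154 reads, the *VEGFA-LNC* deletion clones 8 to 11 and the *VEGFC-LNC* deletion clones 0.

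**Figure D2:**
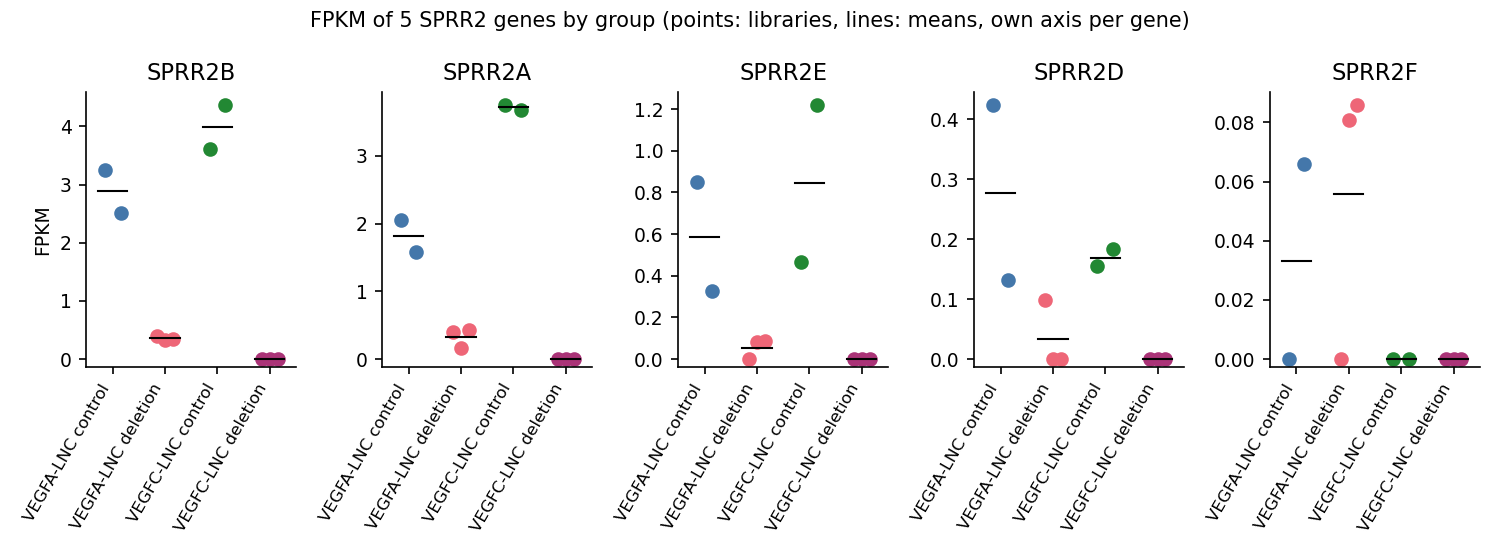
FPKM of the 5 *SPRR2* genes with reads, with a point for each library, a line at each group mean and an axis for each gene. In all panels but that of *SPRR2F* the controls of a deletion lie above its clones.

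The family was chosen on the *VEGFC-LNC* set, but with earlier results of these data known. The comparison of the *VEGFA-LNC* deletion with its own controls is therefore no independent test, and it uses the spread that all groups share. *SPRR2A* and *SPRR2B* both fell, as genes that passed the filter only through their level in the controls, so that their number is no evidence on the family. With no filter on level they were called as well (FDR 0.0207 for *SPRR2A* and 0.00293 for *SPRR2B* by limma), which does not undo the choice of these genes. *SPRR2B* averaged 2.88 ± 0.530 FPKM over its controls (SD, n = 2) against 0.356 ± 0.041 FPKM over the clones (SD, n = 3). Its log2 FC was −2.70 (SE 0.22, 95% interval −3.20 to −2.21, FDR 0.0016 by limma). *SPRR2A* averaged 1.82 ± 0.334 FPKM over its controls (SD, n = 2) against 0.329 ± 0.146 FPKM over the clones (SD, n = 3). Its log2 FC was −2.21 (SE 0.32, 95% interval −2.94 to −1.48, FDR 0.0152 by limma). These FCs are on the log2(FPKM + 0.1) scale, which understates the change of low genes. Of all tested genes 2.02% were called lower in this comparison, and 2.75% were called in either direction.

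Of the 6 untested members, *SPRR2D* and *SPRR2E* had lower values in the clones, *SPRR2F* had 1 read in the controls and 2 in the clones, and *SPRR1A*, *SPRR1B* and *SPRR3* had none to compare. Counted as reads relative to library size over each group, *SPRR2B* was 8.03-fold lower in the clones (95% interval 4.34 to 16.2), *SPRR2A* 5.54-fold (2.84 to 11.8), *SPRR2E* 9.51-fold (2.21 to 85.7) and *SPRR2D* 8.88-fold (1.14 to 400). The family as a whole had 147 reads in the controls and 28 in the clones, and was 6.66-fold lower (4.42 to 10.4). These intervals are exact, conditional on the total reads, and cover counting error only. The summed level of the controls was 5.60 ± 1.39 FPKM (SD, n = 2), that of the clones 0.829 ± 0.160 FPKM (SD, n = 3). All 3 clones lay below both controls in 4 of the 5 members with reads, a pattern met by 23.7% of tested genes and by 21.1% of all symbols with a read. With no filter, *SPRR2E* had a log2 FC of −2.09 (FDR 0.0584 by limma) and *SPRR2D* one of −1.47 (FDR 0.0915 by limma).

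The calls of *SPRR2A* and *SPRR2B* depended on how the controls were counted. The controls of a set differed from each other less than the clones of a deletion did. Over genes of 20 to 99 reads the mean chi-square was 1.23 between the *VEGFA-LNC* controls and 1.15 between the *VEGFC-LNC* controls, where sampling noise alone gives 1, against 2.86 to 7.56 between clones. Over all genes of at least 20 reads it was 3.64 and 1.53, against 18.2 to 135.4 between clones. With each control pair averaged and counted as 1 sample, the log2 FCs were −2.71 and −2.22 and neither gene was called (FDR 0.212 for *SPRR2B* and 0.534 for *SPRR2A* by limma), and no gene at all was called by limma, with 831 genes at an unadjusted p under 0.05. Without the first *VEGFA-LNC* control neither was called (FDR 0.0541 and 0.238 by limma), and without the second *SPRR2B* was (FDR 0.0448 by limma) and *SPRR2A* was not (FDR 0.194). The *VEGFC-LNC* clones, all at 0, add degrees of freedom and no spread to the shared fit, and they are part of what chose the family. With only the *VEGFA-LNC* set in the fit, *SPRR2B* had an FDR of 0.0488 and *SPRR2A* one of 0.120 by limma. Without the first *VEGFA-LNC* clone, whose removal raised the calls over all genes to 1728, both stayed called. A permutation test of 3 clones against 2 controls cannot go below an exact two-sided p of 0.1.

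**Figure D3:**
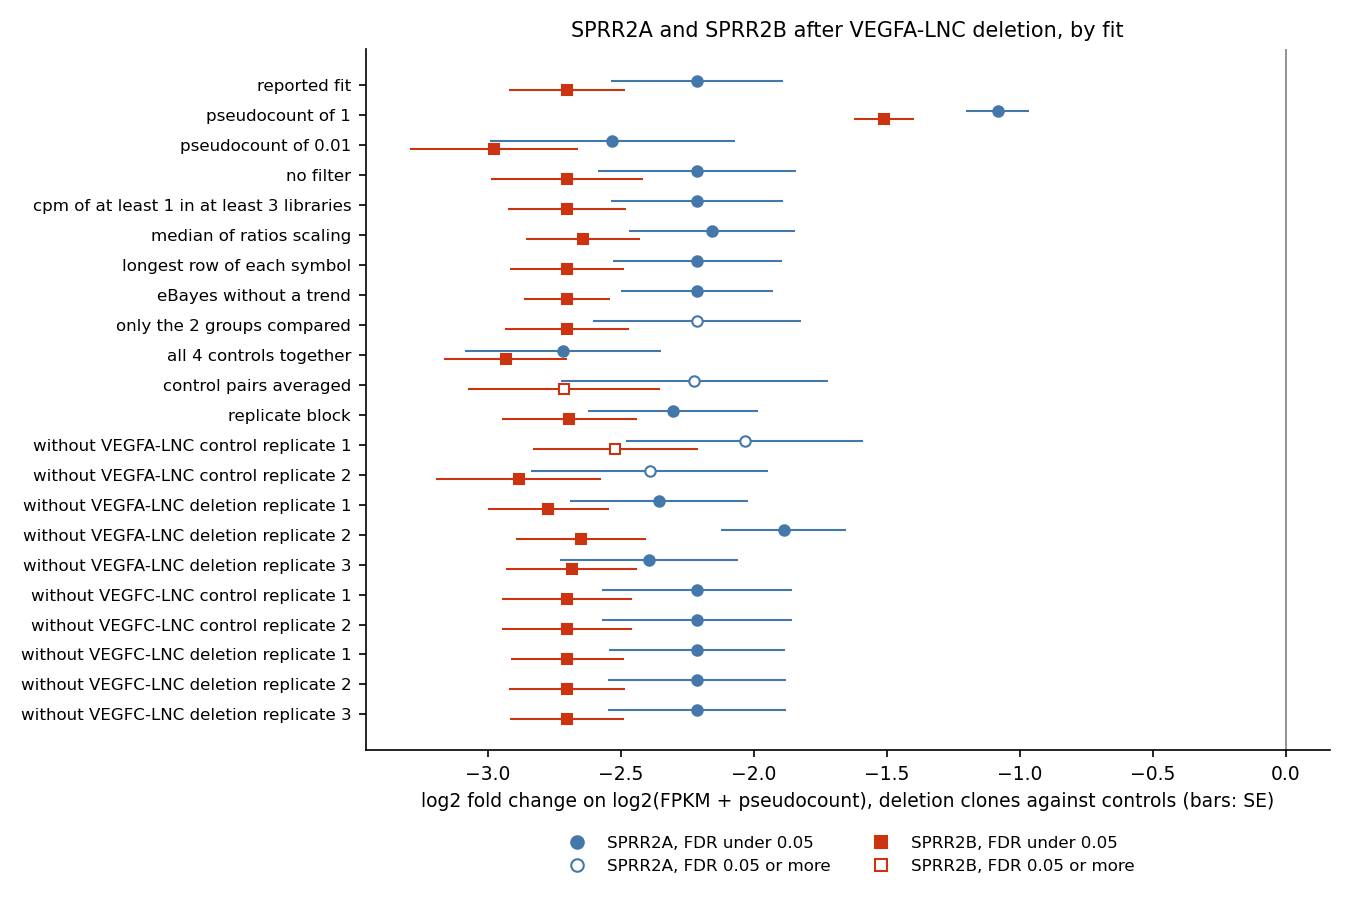
Log2 FC of *SPRR2A* (circles) and *SPRR2B* (squares) in the *VEGFA-LNC* deletion clones against their controls under the reported fit and 21 alternatives, with SE bars and filled symbols for an FDR under 0.05. All values lie between −2.98 and −1.08, and open symbols mark the 4 fits of *SPRR2A* and the 2 of *SPRR2B* that missed the threshold.

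In the *VEGFC-LNC* deletion clones no read of any member was found, against 205 reads in their 2 controls. At the depth of these clones, 3 reads over the group would be 0.0936 FPKM for *SPRR2A*. Set against that floor, with the reads of the controls taken as they stand, *SPRR2B* was at least 44.3-fold lower, *SPRR2A* at least 39.6-fold, *SPRR2E* at least 10.8-fold and the family at least 96.6-fold. With counting error in the controls included, the exact 95% lower limits of the fold were 35.3 for *SPRR2B*, 31.5 for *SPRR2A*, 8.13 for *SPRR2E* and 77.9 for the family. For *SPRR2D*, with 4 reads against 0, the limit was 0.93. These limits cover counting error only and are no test, since this comparison chose the family. Of the 12035 symbols with a mean of at least 1 FPKM in these controls, 23 were at 0 in all 3 clones, *SPRR2A* and *SPRR2B* among them. The values on the log2(FPKM + 0.1) scale, −5.35 for *SPRR2B* and −5.26 for *SPRR2A*, depend on the pseudocount and are no measure of size. Both tested members were lower, beside 0.322% of all tested genes called lower, 0.472% called in either direction and 30.6% with all 3 clones below both controls. Nothing is read from these shares, since this comparison chose the family.

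The controls of either set, which received gRNAs but no Cas9, also differed from each other in level. Whether both control sets were cultured at the same time was not stated. *SPRR2A* averaged 3.72 ± 0.051 FPKM over the *VEGFC-LNC* controls (SD, n = 2) against the 1.82 ± 0.334 FPKM of the *VEGFA-LNC* controls, with a log2 FC of 1.01 (SE 0.35, 95% interval 0.21 to 1.81, FDR 0.092 by limma). *SPRR2B* averaged 3.99 ± 0.539 against 2.88 ± 0.530 FPKM (SD, n = 2 each), with a log2 FC of 0.46 (SE 0.24, 95% interval −0.08 to 1.01, FDR 0.225 by limma). Neither passed the threshold, in a comparison where 12.7% of all tested genes did and 33.7% were higher in both *VEGFC-LNC* controls. By reads relative to library size the family was 1.65-fold higher in the *VEGFC-LNC* controls (1.33 to 2.06). *SPRR2A* passed with only the control groups in the fit (FDR 0.00157 by limma), with a pseudocount of 1 and without the second *VEGFA-LNC* clone. In these fits 4401, 1544 and 1768 genes were called, against 1690 in the reported fit. The call of *SPRR2A* with only the control groups was thus shared with many genes. The libraries compared here include the controls of the comparison that chose the family. The order of *SPRR2A* and *SPRR2B* levels was thus *VEGFC-LNC* controls, *VEGFA-LNC* controls, *VEGFA-LNC* clones and *VEGFC-LNC* clones, and the first 2 groups did not differ beyond the threshold of the test.

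The other SPRR genes of the cluster were read as a check on the boundary of the family. *SPRR2G* had 3 and 3 reads in the *VEGFA-LNC* controls and 1 and 3 in the *VEGFC-LNC* controls, with none in any clone. *SPRR2C*, a noncoding copy, had 2 reads in the *VEGFA-LNC* controls and 1 in the *VEGFC-LNC* controls. *SPRR4* had none, and *SPRR5* had no FPKM values. All reads of *SPRR2C* and *SPRR2G* were thus in controls, but at 3 and 10 reads in all.

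Of 35 other structural genes of the complex in the table, 19 had a read and 2 were tested. *PRR9*, a proline-rich gene that is the nearest tested gene past *SPRR2F* at 104.1 kb, had 3.24 and 3.90 FPKM in the *VEGFA-LNC* controls and 0.055, 0 and 0.094 in their clones (log2 FC −4.66, SE 0.37, FDR 0.0016 by limma). In the other set it had 0.086 and 0.101 FPKM in the *VEGFC-LNC* controls and 0.073, 0 and 0 in their clones. *PRR9* was lower in the *VEGFC-LNC* controls than in the *VEGFA-LNC* controls (log2 FC −4.24, FDR 0.00228 by limma). *LCE2A*, a late cornified envelope gene and the nearest tested one on the other side at 284.6 kb, had 5.67 and 4.14 FPKM in the *VEGFA-LNC* controls and 4.00, 0.369 and 0.489 in their clones. In the *VEGFC-LNC* set it had 2.33 and 1.76 FPKM in the controls and 0.379, 0.092 and 0.252 in the clones, all 3 below both controls (log2 FC −2.74, SE 0.83, FDR 0.16 by limma). It did not pass the test in any of the 3 comparisons. *LCE1F* and *LCE1E*, which did not reach the filter, had group means of 1.53 and 0.538 FPKM in the *VEGFA-LNC* controls, 0.284 and 0.079 in their clones and at most 0.042 in the *VEGFC-LNC* set.

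Of 79 symbols that start within 1 Mb of the cluster, 54 had a read and 23 were tested. Over all tested genes, 2.75% passed in the *VEGFA-LNC* clones, 0.472% in the *VEGFC-LNC* clones and 12.7% between the control sets. In the *VEGFA-LNC* clones *PRR9* fell and *CREB3L4*, a membrane-bound transcription factor, rose (log2 FC 0.85, FDR 0.0434 by limma). There the log2 FC was above 0 for 11 and below 0 for 12, where 55.8% of all tested genes were below 0. The median was −0.0021 beside −0.06 for all tested genes. In the *VEGFC-LNC* clones none passed, but the log2 FC was below 0 for 19 of the 23, where 59.0% of all tested genes were below 0, with a median of −0.33 beside −0.09. Between the control sets *SLC27A3* and *CREB3L4* were higher and *PRR9* and *JTB* lower in the *VEGFC-LNC* controls, with a median of 0.10 beside −0.11. The S100 genes of the cluster, which encode small calcium-binding proteins, held the high levels of the region. *S100A6* had group means of 532.8 to 718.9 FPKM, *S100A11* of 233.3 to 269.4, *S100A10* of 126.8 to 231.9 and *S100A16* of 136.6 to 229.6, and none of the 8 tested passed in any of the 3 comparisons.

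**Figure D4:**
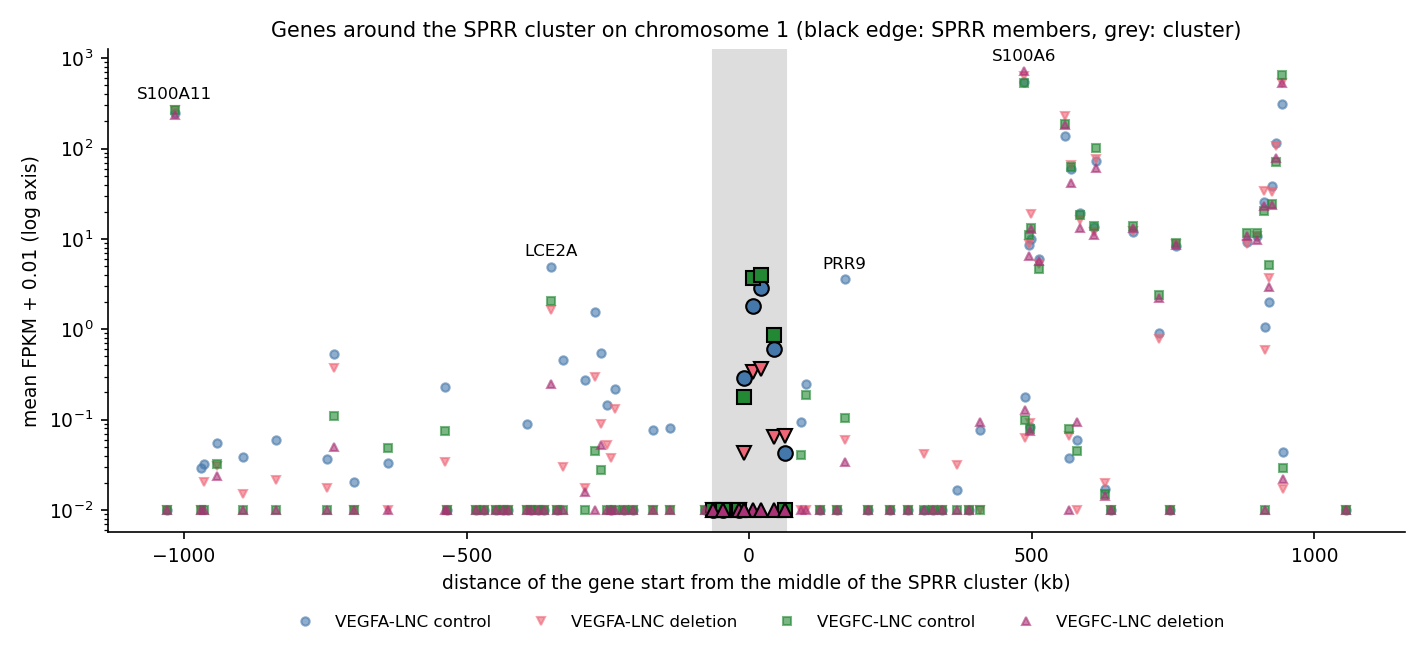
Mean FPKM + 0.01 (log axis) of the genes that start within 1 Mb of the SPRR cluster, by group, against the distance of the gene start from the middle of the cluster in kb, with SPRR members in black edges and the cluster in grey. The *SPRR2* genes, *LCE2A* and *PRR9* stand between long stretches at or near 0, and the S100 genes stand farther away at far higher levels.

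Of 25 cornified envelope partners of SPRR proteins and transglutaminases, all had a read and 5 were tested. *TGM2*, a transglutaminase, had group means of 317.5 to 438.6 FPKM, *ANXA1* of 135.4 to 216.4 and *CSTA*, a cysteine protease inhibitor of the envelope, of 0.752 to 6.17. None of the 5 passed in the *VEGFA-LNC* clones or between the control sets, where 2.75% and 12.7% of all tested genes did. *PPL* (periplakin), 1 of the 5, fell in the *VEGFC-LNC* set, where 0.322% of all tested genes were called lower. There its controls averaged 1.25 ± 0.023 FPKM (SD, n = 2) and its clones 0.032 ± 0.037 FPKM (SD, n = 3, FDR 0.0385 by limma). In the *VEGFA-LNC* set its means were 0.284 ± 0.069 FPKM for controls (SD, n = 2) and 1.84 ± 1.11 FPKM for clones (SD, n = 3). *PI3*, which encodes the protease inhibitor elafin and did not reach the filter, had 1.36 and 0.483 FPKM in the *VEGFA-LNC* controls, 0, 1.28 and 11.7 in their clones and 0 in the *VEGFC-LNC* set. Of 14 keratins of stratified epithelium 3 were tested, *KRT80*, *KRT15* and *KRT10*, and none passed in any comparison.

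The transcription factors known to act on SPRR promoters or in squamous differentiation were mostly present, with 33 of 34 having a read and 21 tested. In the *VEGFA-LNC* clones 2 of the 21 passed the test as lower, where 2.02% of all tested genes did, and none passed as higher. *FOS*, a subunit of AP-1, went from 3.82 and 3.60 FPKM to 1.06, 1.18 and 1.07 (log2 FC −1.66, SE 0.30, FDR 0.0281 by limma). *KLF4*, a factor of epidermal barrier formation, went from 2.98 and 3.51 FPKM to 0.864, 1.60 and 1.06 (log2 FC −1.43, SE 0.27, FDR 0.0321 by limma). The log2 FC was below 0 for 14 of the 21, where 55.8% of all tested genes were below 0. Their median was −0.24 beside −0.06 for all tested genes. Abundant AP-1 subunits did not pass, with group means in controls and clones of 95.8 and 92.7 FPKM for *JUN*, 85.1 and 72.5 for *FOSL1* and 33.5 and 31.8 for *FOSL2*.

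Between the control sets, 7 of the 21 factors passed the test as lower in the *VEGFC-LNC* controls, where 9.76% of all tested genes did, and none passed as higher. The log2 FC was below 0 for 18 of the 21, where 58.1% of all tested genes were below 0, with a median of −0.78 beside −0.11. Among them were *FOS* (−1.77), *KLF4* (−2.03), *CEBPB* (−2.28), *TP63* (−1.76), *FOSL2* (−0.68) and *JUN* (−0.64), as log2 FCs. *CEBPB*, a factor of late epithelial differentiation, stood at 21.0 and 25.2 FPKM in the *VEGFA-LNC* controls and at 4.30 and 5.08 in the *VEGFC-LNC* controls. In the *VEGFC-LNC* clones none of the 21 passed, where only 0.472% of all tested genes did. Their median was 0.17 beside −0.09. *FOS* stood at 0.726, 0.553 and 1.24 FPKM there, against 1.22 and 0.845 in the controls. The part of these factors in the SPRR values was not tested.

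Ligands and receptors of pathways known to induce SPRR genes were tested for 19 of 23. In the *VEGFA-LNC* clones *IL33*, an alarmin, rose (log2 FC 1.44, FDR 0.0228 by limma). *IL6ST*, the shared signalling subunit of the IL-6 family receptors, fell from 45.0 to 25.2 FPKM (log2 FC −0.84, FDR 0.0139 by limma), and *IL36A*, a cytokine of the IL-1 family, fell from 1.74 to 0.066 FPKM (log2 FC −3.51, FDR 0.046 by limma). The median of the 19 was −0.34 beside −0.06 for all tested genes, of which 2.75% passed in either direction. In the *VEGFC-LNC* clones *TGFA*, a ligand of the EGF receptor, rose (log2 FC 1.5, FDR 0.023 by limma) and no other passed. There the median was 0.24 beside −0.09 for all tested genes, of which 0.472% passed in either direction. Between the control sets 9 of the 19 passed as lower in the *VEGFC-LNC* controls, *IL13RA1*, *IL13RA2*, *IL6*, *IL6ST*, *LIF*, *IL11*, *HBEGF*, *TGFA* and *IL1A*, and *IL6R* and *IL33* as higher. In that comparison 9.76% of all tested genes passed as lower and 12.7% in either direction. The median of the 19 was −1.78 beside −0.11. With control pairs averaged, no call of a gene outside the SPRR family remained in any of the 3 comparisons, those of *PRR9*, *FOS*, *KLF4*, *PPL*, *TGFA* and *EMCN* included.

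The genes with the nearest profile over the 10 libraries were sought among the other 13332 tested genes, by the root mean square difference (in log2 units) between centred log2(FPKM + 0.1) values and those of the summed SPRR level. The 8 nearest were *LINC01425* (0.82), *TNC* (0.89), *NAALAD2* (0.98), *EMCN* and *HLA-DRB1* (both 1.28), *MAGEC2* (1.32), *ADAMTS9* (1.36) and *TMEM132D-AS1* (1.40), where the median gene stood at 2.52. They lie on chromosomes 21, 9, 11, 4, 6, X, 3 and 12, and none on chromosome 1. *LINC01425*, a long noncoding RNA, had 7.92 and 6.63 FPKM in the *VEGFA-LNC* controls, 0.712, 0.287 and 0.076 in their clones, 6.84 and 6.51 in the *VEGFC-LNC* controls and 0 in their clones. Like the *SPRR2* genes it was low in the clones of the first deletion and without reads in those of the second. *TNC* (tenascin-C, a matrix glycoprotein) went from 5.04 and 5.11 to 0.769, 0.367 and 1.85 FPKM, and from 2.14 and 2.08 to 0.016, 0.006 and 0 FPKM. *EMCN* (endomucin, a sialoglycoprotein of the endothelium) went from 4.83 and 5.06 to 0.050, 1.54 and 0.172 FPKM, and from 6.39 and 6.74 to 0.022, 0.121 and 0.184 FPKM. *TMEM132D-AS1* shared only the loss in the second deletion, with 4.37 to 6.93 FPKM in the *VEGFA-LNC* clones. *HLA-DRB1* has close paralogs, and its split of reads is uncertain. The likeness is a description over 10 libraries, and the 5 of the *VEGFC-LNC* set chose the family.

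**Figure D5:**
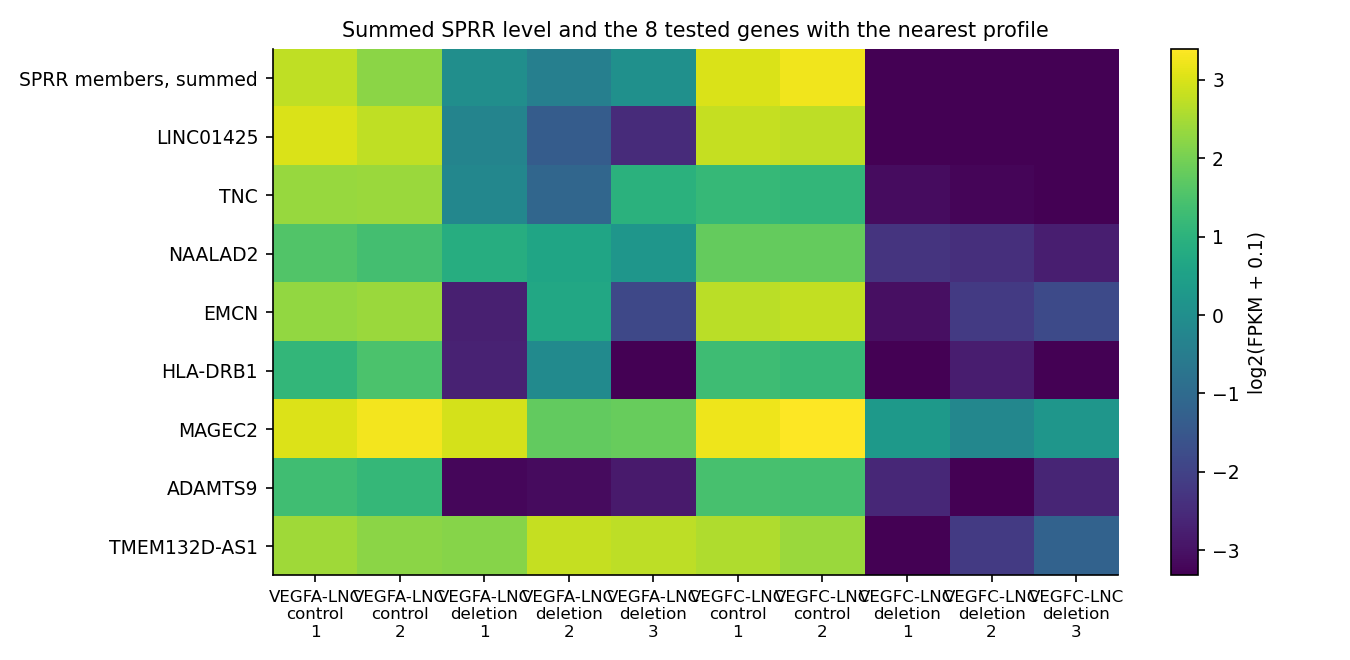
Log2(FPKM + 0.1) of the summed SPRR members (top row) and of the 8 tested genes with the nearest profile, in each of the 10 libraries, as a colour scale. Each row is lower in the *VEGFC-LNC* deletion clones than in their controls, and the rows differ in how low the *VEGFA-LNC* deletion clones are.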

How the data were processed

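RNA-Seq had been measured by the authors in EA.hy926 clones (rRNA-depleted total RNA, a directional kit, single-end reads of 75 bases). What the authors deposited is a single FPKM table of RefSeq transcripts with their lengths and hg19 positions, in the layout of HOMER's repeat and transcript counter. How it was made is not given in the sources used here. The paper's methods name Trim Galore (version 0.4.4), STAR (version 2.5.4b), featureCounts and edgeR for counts that were not used here. STAR kept reads with several placements, and whether the FPKM table counts them was not stated, which matters for genes as alike as the *SPRR2* genes.

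Library sizes were recovered from FPKM multiplied by length, which gave whole reads (within 0.1 read) for 100% of low values. Reads carried no molecular identifiers, and intervals and floors cover counting error only. Genes with at least 1 cpm in 2 libraries were fitted in limma (version 3.58.1, R 4.3.3) on log2(FPKM + 0.1) in 4 groups, by lmFit and eBayes with a mean-variance trend. DEGs had a Benjamini-Hochberg FDR under 0.05 over all tested genes and an FC of at least 1.5. The procedure was tested on simulated data with the same spread in all groups. In the real data the controls of a set differed less than clones, so that the simulation cannot show how the shared fit behaves there. The labels do not say that libraries came from separate cultures, so that p-values measure the spread between these libraries. The members and lists were chosen with earlier results of these data known. Named were all members, the genes of each list called in the *VEGFA-LNC* clones or between the control sets with up to 4 others of the highest mean FPKM, the nearest tested gene on each side and the 8 nearest profiles. *PPL*, *CREB3L4*, *SLC27A3* and *JTB* were named after their values were seen. The values of 1 other gene of the lists are not reported here. Coding sequences came from GRCh37 with GENCODE, and promoters from RefSeq on GRCh38.p14.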

Additional observations from a re-analysis of the deposited data

How the results depend on the processing

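*SPRR2A* and *SPRR2B* kept their direction under all alternatives run in the *VEGFA-LNC* clones and between the control sets, with log2 FCs of −2.72 to −1.08 and −2.98 to −1.51 in the former. The number of members called in the *VEGFA-LNC* clones was 2 and moved to 1 with only the compared groups in the fit, to 0 with control pairs averaged and to between 0 and 2 when a library was left out. In the *VEGFC-LNC* clones, whose values chose the members, it was 2 and with control pairs averaged 1, and nothing is read from either. Between the control sets it was 0, and it was 1 with a pseudocount of 1, 1 with only those groups and 0 to 1 without a library. Over all genes, 367 were called in the *VEGFA-LNC* clones, and 654 with no filter, 20 with only those groups, 29 with all 4 controls together, 0 with control pairs averaged and 0 to 1728 without a library (by limma, with 831 genes at an unadjusted p under 0.05 where pairs were averaged and 1260 without the first *VEGFA-LNC* control, each with 0 calls). The 63 calls in the *VEGFC-LNC* clones became 26 with only those groups, 1 with control pairs averaged and 5 to 1157 without a library. The 1690 calls between the control sets became 4401, 0 (with 1214 genes at an unadjusted p under 0.05 by limma) and 29 to 3066 under the same alternatives. The cause was not tested. With control pairs averaged, a lone control per set is assumed to vary like the other groups.

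Same-numbered libraries of the compared groups did not deviate together (correlations of −0.055 to 0.047 over clones and controls, 0.22 to 0.55 only for clones of the 2 deletions), so that the numbers were not used as a pairing. With the replicate number as a replicate block, 151 genes were called in the *VEGFA-LNC* clones (*SPRR2A* and *SPRR2B* among them) and 20 in the *VEGFC-LNC* clones. Rescaling by the median of ratios moved the median log2 FC of all genes between the control sets from −0.11 to 0.00 and the calls there from 389 higher and 1301 lower to 586 and 906, and in the *VEGFC-LNC* clones from 20 and 43 to 38 and 44. With 3 reads as the floor, a count of 0 reads of *SPRR2A* in a group of clones bounds its level at about 0.09 FPKM. This bound depends on transcript length, and single reads gave lower levels.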
